A study of Sus scrofa with 63 samples.

Results

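The genes described here encode enzymes that attach ubiquitin or its relatives to proteins and enzymes that take them off again. They were taken from the platform annotation by symbol: all UBE2 genes except UBE2C, the UBE3, UBA, USP and UCHL genes, each from a probe-set with a single gene symbol and each represented by the probe-set of highest mean signal over all arrays. This gave 45 genes (23 UBE2, 2 UBA, 2 UBE3, 16 USP and 2 UCHL genes) of the 6765 genes with a single symbol on the array, measured by 73 of 23935 probe-sets. The rule did not use any measured change. Of the 45 genes, 27 have a single probe-set and 18 have several, and 2 further probe-sets of the family that list several genes were left out.

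Ubiquitin is activated by an E1 enzyme, handed to an E2 conjugating enzyme and passed to a substrate with the help of an E3 ligase, and chains built on a substrate can send it to the proteasome or change its activity and place in the cell. SUMO, NEDD8, UFM1 and ISG15 are relatives of ubiquitin that use the same order of enzymes, each with its own E1 and E2. Ubiquitin specific proteases (USP) and ubiquitin C-terminal hydrolases (UCH) remove the tag, and in liver the system turns over metabolic enzymes, receptors and misfolded secretory proteins.

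Liver RNA was hybridised to porcine expression arrays from fetuses 94 days after conception (94 dpc, 16 arrays) and from pigs aged 1 day (1 dpn, 16 arrays), 28 days (28 dpn, 15 arrays) and 188 days (188 dpn, 16 arrays), with 1 array per animal and 63 in all. All animals were offspring of German Landrace gilts that were fed the high protein (HP) diet in pregnancy, and no diets are compared. Fetuses came from a separate group of sows by Caesarean section. Newborns at 1 dpn were sampled before fostering, and the animals at 28 and 188 dpn had been raised by foster sows on the adequate protein diet. Fostering, killing method, fasting before sampling and the choice of light and heavy littermates differed between stages according to the methods of the study, and their part cannot be told apart from age. The comparisons are period I (94 dpc to 1 dpn), period II (1 to 28 dpn), period III (28 to 188 dpn) and the whole span (94 dpc to 188 dpn). Neighbouring periods share the arrays of a stage, so their changes are not independent of each other. In whole liver, fewer cells of a type and less RNA per cell cannot be told apart.

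Hepatocyte transcripts dominated every array: the mean of the 15 measured hepatocyte markers lay between 14.9 and 15.8 (log2 signal) on all arrays, and ALB, which encodes albumin, had stage means from 15.6 to 16.0. The median signal of all probe-sets was 7.38 at 94 dpc and 6.72 at 188 dpn (means over arrays), and the change of the median tested probe-set was −0.10 in period I, −0.145 in period II, −0.07 in period III and −0.37 over the whole span. Changes are therefore also given relative to that median for some of the main changes. RNAs added to each sample differed between their 3′ and 5′ probe-sets by 0.689 to 1.099 (log2) at 94 dpc and by 1.503 to 2.04 at 1 dpn, without overlap, and by 1.32 to 3.55 at 188 dpn. This handling difference cannot be told apart from age in period I and over the whole span. Array 6 of 94 dpc and array 4 of 1 dpn stood apart from the others of their stage, with a median correlation to them of 0.854 and 0.865.

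Over development, more genes of the family fell than rose on the deposited scale. Of 42 genes tested over the whole span 28 fell and 7 rose at an adjusted p under 0.05 (limma, Benjamini-Hochberg over all probe-sets tested), which is 83.3% called against 80.1% of all 13377 probe-sets tested. The share that fell was 66.7% against 53.1% of all probe-sets, and the median change was −0.49 against −0.37. Among the 7 that rose, UBE2D4, USP2 and USP36 passed the filter on level only through the arrays at 188 dpn. UBE3D, among the 28 that fell, passed it only through the fetal arrays. Called changes of at least 2-fold were found in 13 of the 42 genes, against 39.1% of all probe-sets. Arrays did not overlap for 8 of the 42, with 1 higher and 7 lower at 188 dpn, where 23.9% of all probe-sets did not overlap (7.8% higher and 16.1% lower). With every array centred on its tested probe-sets' median, 14 genes rose and 15 fell over the same span, and with quantile normalization 11 rose and 21 fell. The 3′ minus 5′ signal of actin had a mean of 2.44 at 94 dpc (1.84 to 4.30) and of 4.10 at 188 dpn (3.39 to 4.88). Its part in the whole-span counts was not tested.

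In period I, 39 genes were tested, 8 rose and 10 fell, or 46.2% called against 56.9% of all probe-sets (22.9% rose and 34% fell). Among the 10 that fell, UBE3D passed the filter on level only through the fetal arrays. With centring, 13 rose and 8 fell. When the 3′ minus 5′ signal of the added RNAs was entered as a covariate, limma called 0 of the 39 genes and 0.849% of all probe-sets, with 6 genes at an unadjusted p under 0.05. The part of that difference in each change around birth given here cannot be told apart from age.

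Period II had the most calls of the 3 periods, with 32 of 39 genes called, 23 of them falling and 9 rising. That is 82.1% against 71.7% of all probe-sets, of which 28.8% rose and 42.9% fell. Among the 9 that rose, USP2 passed the filter on level only through the arrays at 28 dpn. The median change was −0.305 against −0.145 for all probe-sets, and the median size without sign was 0.445 against 0.573. Arrays of both stages did not overlap for 6 genes, 1 higher and 5 lower at 28 dpn, with 11.7% of all probe-sets without overlap (4.95% higher and 6.74% lower). With centring, 13 genes rose and 16 fell. The 3′ minus 5′ signal of actin, a measure of RNA integrity, had a mean of 1.59 at 1 dpn (0.754 to 3.16) and of 3.66 at 28 dpn (3.15 to 4.02), and its part in these counts was not tested.

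In period III, 41 genes were tested, 3 rose and 17 fell, or 48.8% called against 34.7% of all probe-sets (12.3% rose and 22.5% fell). No gene of the family was without overlap here, against 1.26% of all probe-sets. With quantile normalization the split was 4 rising and 11 falling, and with centring it was 5 and 9. The falling genes of this period were mainly conjugating enzymes: 12 of 22 E2 genes fell and 1 rose, whereas 2 of 15 USP genes fell and 2 rose. The difference between both kinds of enzyme was not tested.

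**Figure D1:**
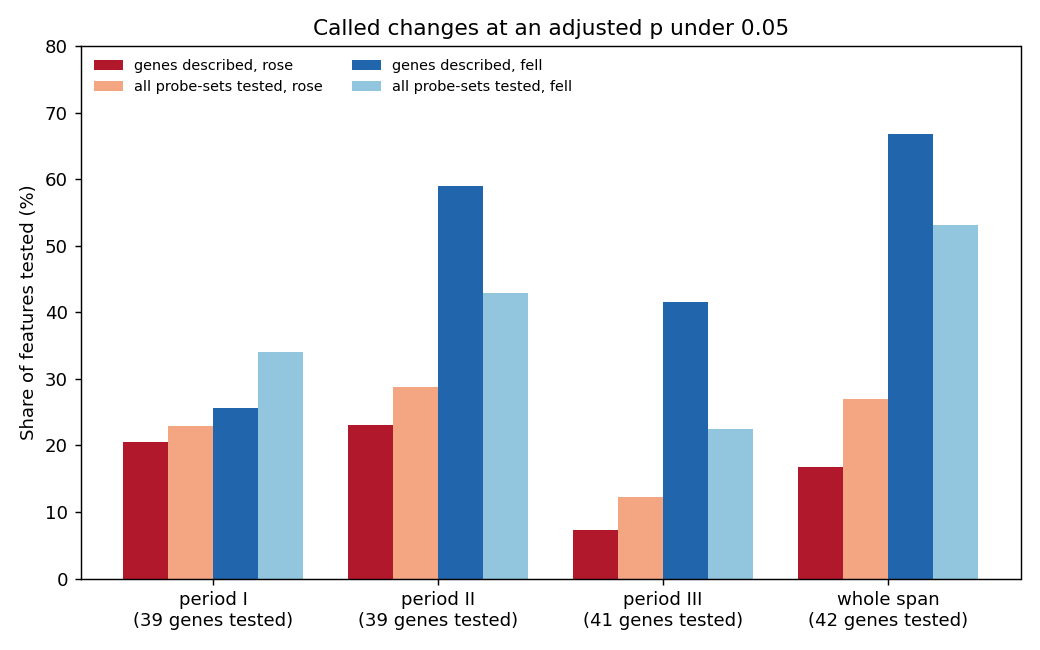
Share of features (y axis, %) that rose or fell at an adjusted p under 0.05 in each comparison (x axis), for the ubiquitin enzyme genes (dark bars) and for all probe-sets tested (light bars). In period II 59.0% of the genes fell against 42.9% of all probe-sets, and in period III 41.5% fell against 22.5%.

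The levels differ in time course. Of the 45 genes, 19 had their highest stage mean in fetuses, 13 at 1 dpn, 7 at 28 dpn and 6 at 188 dpn. Neither these counts nor those that follow were made over all probe-sets. The median signal of all probe-sets also went down, from 7.38 at 94 dpc to 6.72 at 188 dpn, so early peaks cannot be read as particular to the family. Through the periods, 7 genes were called in all 3 periods, 16 in 2, 17 in 1 and 5 in none. Of these 5, UBE2QL1, UCHL1 and USP30 were tested in no period, and USP3 and USP36 in period III only. UBE3D was tested in period I only, and USP2 in periods II and III only. The most frequent course, found in 8 genes, was a fall in period II alone, and 5 genes rose in period I and fell in both later periods.

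**Figure D2:**
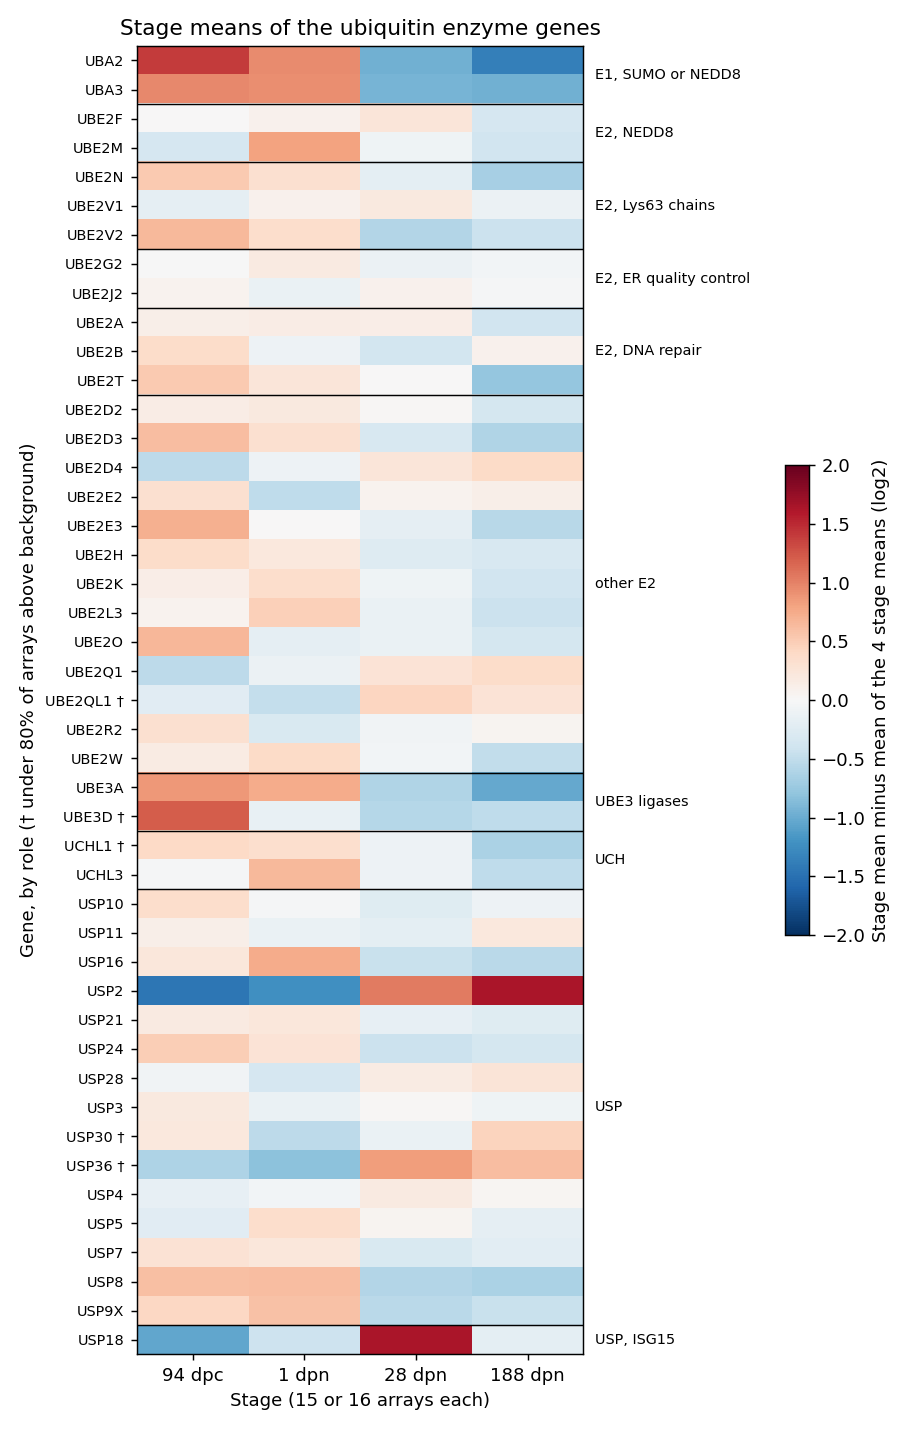
Stage means of the 45 genes (rows, ordered by role) at the 4 stages (columns), coloured by the difference from the mean of the gene's own 4 stage means (log2, colours end at 2). A dagger marks the 5 genes above background on under 80% of the 63 arrays. UBA2, UBA3 and UBE3A are high at both early stages, UBE2M at 1 dpn, and USP18 at 28 dpn.

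The E1 enzymes on the array serve relatives of ubiquitin, and they had the largest falls of the family in period II. UBA2 is the catalytic subunit of the SUMO activating enzyme. Its signal (log2, lowest, median and highest array) was 11.08, 11.29 and 11.53 in fetuses, 10.38, 10.92 and 11.29 at 1 dpn, 7.97, 9.02 and 9.69 at 28 dpn, and 7.85, 8.65 and 9.06 at 188 dpn. All arrays at 28 dpn lay below all arrays at 1 dpn, and all at 188 dpn below all at 94 dpc. UBA2 fell by 0.45 (SE 0.0921, adjusted p = 9.75e-05) in period I, fell by 1.90 (SE 0.15, adjusted p = 1.23e-12) in period II and fell by 0.40 (SE 0.152, adjusted p = 0.0395) in period III. The period III call was lost with no filter on level (adjusted p = 0.0816), quantile normalization (0.103), centring (0.102) and the 3′ to 5′ covariate (0.155). Over the whole span it fell by 2.76 (SE 0.0959, adjusted p = 1.07e-22), with a change relative to the median probe-set of −2.39.

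UBA3, the catalytic subunit of the NEDD8 activating enzyme, was called in period II and in neither other period. Its median was 9.85 in fetuses (range 9.02 to 10.36) and 9.86 at 1 dpn (8.95 to 10.35), then 8.10 at 28 dpn (6.83 to 8.60) and 7.94 at 188 dpn (7.15 to 8.53). The early and late arrays formed levels that did not overlap, while neighbours within each level did. UBA3 fell by 1.86 in period II (SE 0.156, adjusted p = 4.79e-12). The changes of −0.02 in period I (adjusted p = 0.921) and −0.04 in period III (adjusted p = 0.868) did not pass. A second tested probe-set of UBA3 fell by 1.32 in period II (SE 0.09).

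The non-catalytic subunits of these E1 enzymes are separate genes. SAE1, the partner of UBA2, fell by 0.34 in period II (SE 0.0821) and by 0.53 in period III (SE 0.0678). NAE1, the partner of UBA3, fell by 0.60 (SE 0.105) and 0.44 (SE 0.144) in the same periods. Both fell less than their catalytic partners in period II on the deposited scale, a difference that was not tested.

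The E2 enzymes of NEDD8, which modifies the cullins of a large class of E3 ligases, had other calls than their E1. UBE2M had lowest, median and highest signals of 8.36, 9.29 and 9.82 in fetuses, 9.89, 10.36 and 11.02 at 1 dpn, 9.15, 9.50 and 9.86 at 28 dpn, and 8.73, 9.18 and 9.59 at 188 dpn. The newborn arrays stood above every array of the stage before and of the stage after. UBE2M rose by 1.15 in period I (SE 0.131, adjusted p = 5.83e-09), fell by 0.89 in period II (SE 0.107, adjusted p = 9.59e-09) and fell by 0.30 in period III (SE 0.0857, adjusted p = 0.00558). It was the only gene of the family whose arrays did not overlap upwards in period I, where 1.85% of all probe-sets did so and 5.05% lacked overlap in either direction. Its change over the whole span was −0.05 (adjusted p = 0.701), which with centring was 0.40. The 3′ to 5′ difference of actin was lowest at 1 dpn too (mean 1.59, against 2.44 at 94 dpc and 3.66 at 28 dpn). Across the 63 arrays, with stage means subtracted, it ran against UBE2M (Spearman's rho −0.531, Pearson's r −0.616), and its part in the change was not tested.

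UBE2F, the other NEDD8 conjugating enzyme, stayed between stage means of 10.5 and 10.8 until 28 dpn and then fell by 0.57 in period III (SE 0.077, adjusted p = 5.28e-07). Its changes in period I (0.08, adjusted p = 0.372) and in period II (0.16, adjusted p = 0.0827) did not pass. Over the whole span it fell by 0.33 (SE 0.0757), but that change was 0.12 with centring.

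**Figure D3:**
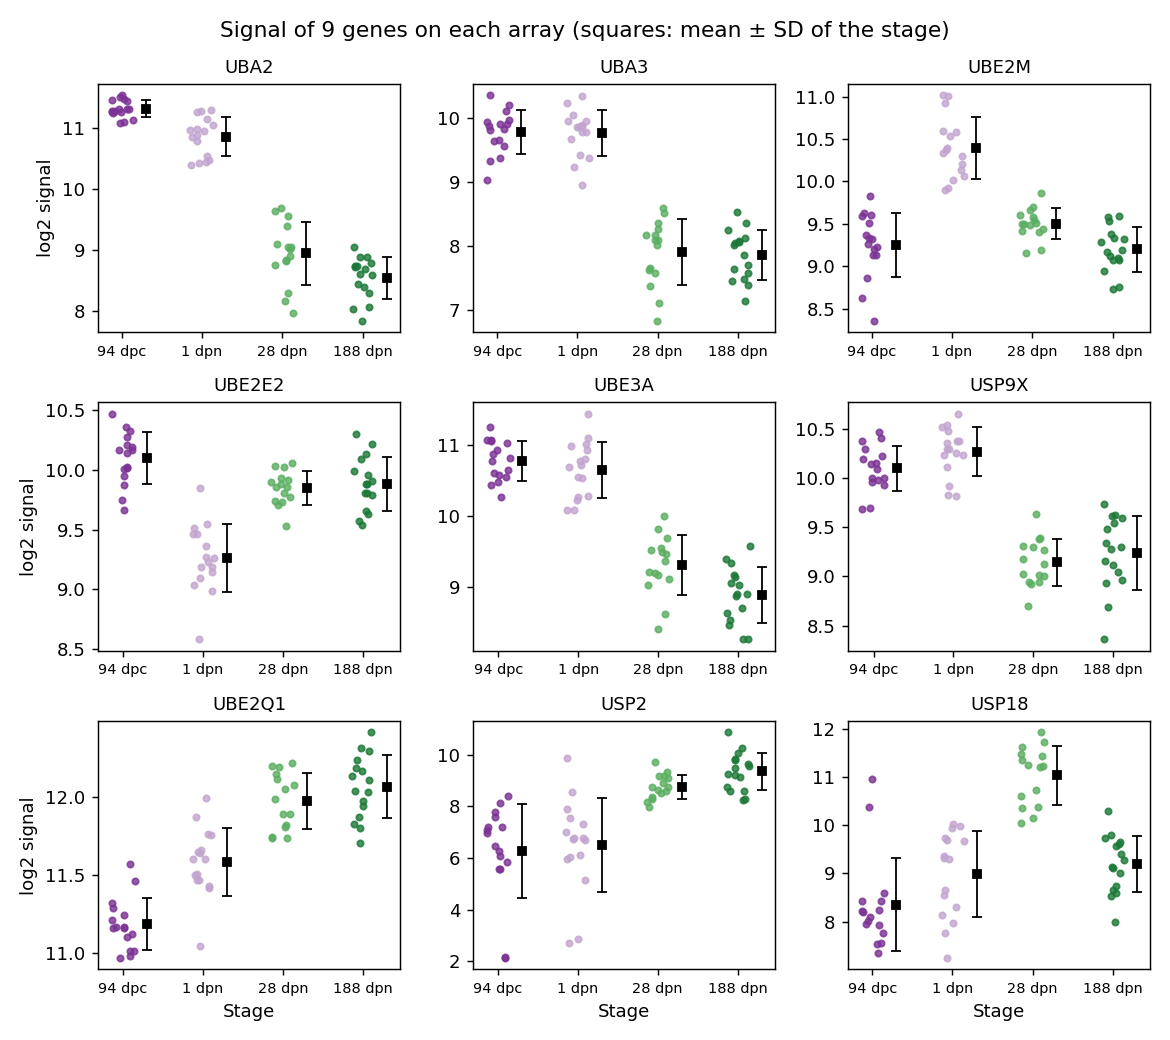
Log2 signal (y axis) of 9 genes on each array (points) at the 4 stages (x axis), with the mean and SD of the stage as a black square and bar. UBA2, UBA3, UBE3A and USP9X separate the arrays at 1 dpn from those at 28 dpn, UBE2M peaks at 1 dpn (median 10.36), UBE2E2 dips there (median 9.24), and USP18 peaks at 28 dpn (median 11.23).

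UBE2N, the E2 that builds Lys63-linked chains of DNA repair and immune signalling, and its inactive partners UBE2V1 and UBE2V2 had different calls. UBE2N ranged from 10.76 to 12.12 in fetuses (median 11.69), from 10.77 to 11.91 at 1 dpn (median 11.57), from 10.58 to 11.53 at 28 dpn (median 10.86) and from 10.12 to 10.96 at 188 dpn (median 10.49). Its arrays overlapped between neighbouring stages. UBE2N fell by 0.51 in period II (SE 0.108, adjusted p = 8.69e-05) and by 0.47 in period III (SE 0.0908, adjusted p = 0.000123), after −0.21 (adjusted p = 0.124) in period I.

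UBE2V2 fell by 0.30 in period I (SE 0.0969, adjusted p = 0.00944) and by 0.93 in period II (SE 0.138, adjusted p = 4.61e-07), and its arrays at 188 dpn (8.47 to 9.64) all lay below those at 94 dpc (9.76 to 10.54). UBE2V1 rose by 0.26 in period I (SE 0.0635, adjusted p = 0.000744), changed by 0.10 in period II (adjusted p = 0.147) and fell by 0.30 in period III (SE 0.0776, adjusted p = 0.00257). The UBE2V1 value depends on the probe-set. A second one fell by 2.63 in period II (SE 0.129, adjusted p = 1.34e-17) without overlap, and another changed by −0.18.

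The E2 enzymes of protein quality control at the endoplasmic reticulum were among the steadiest. UBE2G2 stayed between stage means of 8.99 and 9.29 and fell by 0.31 in period II only (SE 0.119, adjusted p = 0.023), a call lost with quantile normalization and with centring. UBE2J2 stayed between 9.37 and 9.60 and rose by 0.23 in period II (SE 0.104, adjusted p = 0.0486). Neither passed in period I, period III or the whole span on the deposited scale, and both whole-span changes turned from below to above 0 with quantile normalization (0.29 and 0.17) and with centring (0.39 and 0.36).

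Of 3 E2 enzymes of DNA repair, UBE2A and UBE2T fell and UBE2B rose in period III. UBE2A and UBE2B are near-identical RAD6 enzymes, and whether their probe-sets share signal was not examined. UBE2A changed by 0.03 and −0.02 in periods I and II (adjusted p = 0.728 and 0.87) and fell by 0.51 in period III (SE 0.0916, adjusted p = 4.37e-05). UBE2B went the other way in period III. It fell by 0.46 in period I (SE 0.102, adjusted p = 0.000241) and by 0.26 in period II (SE 0.114, adjusted p = 0.0403), and rose by 0.45 in period III (SE 0.103, adjusted p = 0.000811). The period II call of UBE2B was lost without array 4 of 1 dpn (−0.23, adjusted p = 0.069). Its fall of 0.28 over the whole span was a rise of 0.17 with centring.

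UBE2T is the E2 that marks the Fanconi anaemia proteins at stalled replication forks. Its lowest, median and highest signals were 7.51, 8.60 and 9.04 in fetuses, 6.58, 8.43 and 9.16 at 1 dpn, 7.24, 8.01 and 8.70 at 28 dpn, and 6.67, 7.23 and 7.76 at 188 dpn. The newborn arrays had the widest spread (SD 0.778) and reached beyond the other stages at both ends. UBE2T fell by 0.79 in period III (SE 0.134, adjusted p = 1.92e-05) and by 1.30 over the whole span (SE 0.129, adjusted p = 5.51e-11). In period II its change was −0.23 (adjusted p = 0.346). It was −0.49 without arrays 9, 11 and 12 of 1 dpn, which were picked after the values were seen. These arrays had the lowest cell cycle means of their stage (6.92, 6.29 and 6.91) and low UBE2T signals (7.46, 6.58 and 7.17), so that value is a description.

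Cell cycle genes fell in period III too, and also in period II, where UBE2T was not called. The mean of the 19 cell cycle genes had a range of 8.56 to 9.71 in fetuses, 6.29 to 9.91 at 1 dpn, 6.54 to 8.20 at 28 dpn and 5.46 to 6.61 at 188 dpn. Of its tested genes 16 of 18 fell in period II and 13 of 13 in period III, against 42.9% and 22.5% of all probe-sets. Only 13 were tested in period III. The others passed the filter in period II only through the newborn arrays, so their values there are a description. Across the 63 arrays with stage means subtracted, UBE2T ran with the list mean at a Spearman's rho of 0.655 and a Pearson's r of 0.744. The arrays share scaling, and the part of dividing cells in the change of UBE2T was not tested.

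Among the other E2 enzymes, the genes of the UBE2D group, which works with many E3 ligases, were called in both directions. UBE2D2 (mean over all arrays 12.44) fell by 0.38 in period III (SE 0.095, adjusted p = 0.00196). Its smaller fall of 0.16 in period II (SE 0.0697, adjusted p = 0.0357) was 0.06 upwards with centring. UBE2D3 fell by 0.30 in period I (SE 0.0827) and by 0.65 in period II (SE 0.103, adjusted p = 1.73e-06), and over the whole span by 1.22 without overlap, from a range of 10.36 to 10.98 to one of 8.72 to 10.17. UBE2D4 went up instead, by 0.34 in period II (SE 0.127, adjusted p = 0.0176). Over the whole span it passed the filter on level only through the arrays at 188 dpn, so the difference of 0.92 is a description.

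UBE2E2 and UBE2E3 are close relatives that parted after birth. UBE2E2 had lowest, median and highest signals of 9.66, 10.15 and 10.47 in fetuses, 8.58, 9.24 and 9.85 at 1 dpn, 9.53, 9.86 and 10.06 at 28 dpn, and 9.54, 9.88 and 10.30 at 188 dpn. The newborn arrays were low and all other stages lay close together. UBE2E2 fell by 0.84 in period I (SE 0.0953, adjusted p = 5.1e-09) and rose by 0.59 in period II (SE 0.0885, adjusted p = 5.83e-07), in both periods opposite to UBE2M. Its fall of 0.21 over the whole span was a rise of 0.23 with centring.

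UBE2E3 (mean over all arrays 12.15) fell in period I as well, by 0.71 (SE 0.0969, adjusted p = 1.86e-07), and was the only gene of the family whose arrays did not overlap downwards there, against 3.2% of all probe-sets. Its range was 12.64 to 13.05 at 94 dpc (median 12.88) and 11.08 to 12.58 at 1 dpn (median 12.22). No recovery followed: it changed by −0.18 in period II (adjusted p = 0.1) and fell by 0.38 in period III (SE 0.0671, adjusted p = 4.1e-05), ending 1.26 below 94 dpc (SE 0.0674, adjusted p = 1.12e-17). Without array 4 of 1 dpn its fall of 0.25 in period II passed as well (adjusted p = 0.00231).

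UBE2O, an E2 and E3 in one protein that clears surplus proteins during red cell maturation, was highest in the fetus. Its range was 9.10 to 10.30 in fetuses (median 9.72), 8.43 to 9.53 at 1 dpn (median 8.83), 8.57 to 9.32 at 28 dpn (median 8.91) and 8.36 to 9.07 at 188 dpn (median 8.74). The fetal arrays lay wholly above those at 188 dpn. UBE2O fell by 0.85 in period I (SE 0.127, adjusted p = 1e-06) and by 1.01 over the whole span (SE 0.114, adjusted p = 1.05e-09). Its change of −0.22 in period III (adjusted p = 0.0469) was not called under several alternatives, among them quantile normalization (0.318), centring (0.346) and the mean of its probe-sets (0.64).

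Transcripts of red cell precursors fell in the same period. All 8 measured red cell genes fell in period I, against 34% of all probe-sets. Only 5 of them were tested in period II. The others passed the filter in period I only through the fetal arrays, so their falls are a description. The list mean went from a range of 10.00 to 11.27 at 94 dpc to 7.26 to 8.20 at 1 dpn. RHCE fell by 5.25 (SE 0.304) and AHSP, the chaperone of alpha haemoglobin, fell by 4.67 (SE 0.196). The part of red cell precursors in the fall of UBE2O was not tested.

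UBE2R2 is a conjugating enzyme of cullin ligases and a relative of CDC34. It fell by 0.62 in period I (SE 0.104, adjusted p = 5.64e-06) and rose by 0.23 in period II (SE 0.091, adjusted p = 0.0269), and its fall of 0.26 over the whole span turned to 0.06 with quantile normalization and 0.19 with centring. CDC34 itself rose by 0.47 in period II (SE 0.0923) and by 1.16 over the whole span (SE 0.0971).

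UBE2L3, which serves HECT and parkin-type ligases, and UBE2K, which builds Lys48-linked chains, rose in period I and fell in both later periods, as did UBE2M, UCHL3 and USP5. UBE2L3 rose by 0.40 in period I (SE 0.114, adjusted p = 0.00355), then fell by 0.60 (SE 0.111, adjusted p = 1.62e-05) and 0.30 (SE 0.0785, adjusted p = 0.00322). With the mean of its probe-sets the period I rise of UBE2L3 was 0.11 and was not called (adjusted p = 0.405). UBE2K rose by 0.22 in period I (SE 0.0929, adjusted p = 0.04), a call lost without array 6 of 94 dpc (adjusted p = 0.0687) and without array 4 of 1 dpn (adjusted p = 0.0643), and it fell by 0.44 and 0.30 in periods II and III.

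UBE2Q1, an E2 with little known of its substrates, rose in both early periods. Its lowest, median and highest signals were 10.97, 11.17 and 11.57 in fetuses, 11.05, 11.60 and 12.00 at 1 dpn, 11.74, 11.99 and 12.22 at 28 dpn, and 11.71, 12.08 and 12.42 at 188 dpn. No array at 188 dpn lay as low as any fetal array. UBE2Q1 rose by 0.40 in period I (SE 0.0775, adjusted p = 4.69e-05), by 0.39 in period II (SE 0.0804, adjusted p = 7.3e-05) and by 0.88 over the whole span (SE 0.0736, adjusted p = 1.03e-12). A second probe-set gave 0.40, 0.37 and 0.90. UBE2H, the E2 of the CTLH ligase, fell by 0.46 in period II (SE 0.101), where its second probe-set changed by 0.08, and UBE2W, which tags protein N-termini, fell by 0.44 (SE 0.12) in period II and 0.43 (SE 0.166) in period III.

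Of the UBE3 ligases, UBE3A, the HECT ligase that is lost in Angelman syndrome, had lowest, median and highest signals of 10.27, 10.80 and 11.25 in fetuses, 10.08, 10.70 and 11.44 at 1 dpn, 8.40, 9.36 and 10.00 at 28 dpn, and 8.26, 8.89 and 9.57 at 188 dpn. The early and late stages did not overlap. UBE3A fell by 1.35 in period II (SE 0.145, adjusted p = 1.04e-09), by 0.42 in period III (SE 0.143, adjusted p = 0.0214) and by 1.89 over the whole span (SE 0.121, adjusted p = 1.22e-15), a change relative to the median probe-set of −1.52. UBE3D was dim, above background on 14, 12, 9 and 9 arrays in the order of age, and passed the filter on level in period I and over the whole span only through the fetal arrays. Its signals ranged from 5.66 to 7.98 in fetuses (median 7.51) and from 2.19 to 7.85 at 1 dpn (median 6.39), which is a description. The mean of its probe-sets changed by −0.77 in period I and was not called (adjusted p = 0.0604).

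Of the UCH enzymes, UCHL3, which trims ubiquitin and NEDD8 precursors, repeated the course of UBE2M with a smaller peak. It had a median of 9.55 in fetuses (8.56 to 9.80), 10.23 at 1 dpn (9.65 to 10.39), 9.43 at 28 dpn (9.03 to 9.80) and 9.18 at 188 dpn (8.41 to 9.52). Only the lower end of the newborn arrays met the upper end of the stages on both sides. UCHL3 rose by 0.67 in period I (SE 0.0949, adjusted p = 3.47e-07), fell by 0.75 in period II (SE 0.087, adjusted p = 4.86e-09) and fell by 0.40 in period III (SE 0.109, adjusted p = 0.00443). UCHL1, a neuronal enzyme, was above background on 1 and 2 arrays at 94 dpc and 1 dpn and on none at the later stages, and was not tested.

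Of the 14 deubiquitinating enzymes tested in period II, 9 fell and 4 rose (64.3% and 28.6%, against 42.9% and 28.8% of all probe-sets). USP2, among those that rose, passed the filter only through the arrays at 28 dpn. USP9X, a large enzyme that protects many proteins from the proteasome, ranged from 9.69 to 10.47 in fetuses (median 10.12), from 9.82 to 10.66 at 1 dpn (median 10.30), from 8.69 to 9.63 at 28 dpn (median 9.13) and from 8.36 to 9.73 at 188 dpn (median 9.29). All arrays at 28 dpn lay below those at 1 dpn. USP9X fell by 1.13 in period II (SE 0.0927, adjusted p = 3.17e-12), a change relative to the median probe-set of −0.98. USP8, which acts on receptors in endosomes, fell by 1.19 in that period (SE 0.143, adjusted p = 8.74e-09), with changes of 0.00 and −0.05 in the periods before and after (adjusted p = 0.993 and 0.845).

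USP16, a histone H2A deubiquitinase, was highest at 1 dpn. It rose by 0.51 in period I (SE 0.148, adjusted p = 0.00361) and fell by 1.19 in period II (SE 0.168, adjusted p = 2.11e-07). With the mean of its probe-sets the period I rise of USP16 was 0.21 and was not called (adjusted p = 0.189). USP5, which takes apart free ubiquitin chains, rose by 0.58 in period I (SE 0.155, adjusted p = 0.00175) and then fell by 0.31 (SE 0.125, adjusted p = 0.0288) and 0.23 (SE 0.0891, adjusted p = 0.0478). Both falls of USP5 lost their call with quantile normalization (adjusted p = 0.44 and 0.292) and with centring (0.58 and 0.325). In period II, USP24 fell by 0.70 (SE 0.138), USP7, a deubiquitinase of MDM2 and p53, by 0.53 (SE 0.107) and USP21 by 0.38 (SE 0.0947). USP10 fell by 0.37 in period I (SE 0.0873, adjusted p = 0.00056) and by 0.22 in period II (SE 0.0986, adjusted p = 0.0469), and the second of these was 0.01 upwards with centring and was lost without array 4 of 1 dpn (adjusted p = 0.0733).

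Among deubiquitinating enzymes, 28.6% of those tested rose in period II against 28.8% of all probe-sets, and 31.2% against 27% over the whole span. USP2 counts among them in both comparisons, and USP36 over the whole span. USP28 rose by 0.50 in period II (SE 0.115, adjusted p = 0.000299) and by 0.32 over the whole span. USP11 rose by 0.40 in period III (SE 0.131, adjusted p = 0.0158), from a median of 8.17 to one of 8.68. USP36, an enzyme of the nucleolus, was above background on 3, 3, 13 and 12 arrays in the order of age and passed the filter over the whole span only through the arrays at 188 dpn, so its signals are given as a description. They ranged from 3.32 to 7.31 in fetuses (median 4.97) and from 4.69 to 7.66 at 188 dpn (median 6.69). USP3 passed the filter in period III and the whole span without a call (−0.12 and −0.28), and USP30 and UBE2QL1 passed it in no comparison.

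USP2, an enzyme tied to the circadian clock in liver, was brighter at the later stages. Its lowest, median and highest signals were 2.11, 6.73 and 8.39 in fetuses, 2.72, 6.76 and 9.87 at 1 dpn, 7.99, 8.75 and 9.71 at 28 dpn, and 8.25, 9.40 and 10.88 at 188 dpn. It was above background on 10 and 12 of the 16 arrays at the early stages and on all 15 and 16 later. The early arrays spread widely (SD 1.83 at both) and the late ones did not (SD 0.472 and 0.736). USP2 passed the filter in period II and over the whole span through its late arrays only, so the differences of 2.26 and 3.08 between the stage means are a description. Between the late stages USP2 rose by 0.59 (SE 0.214, adjusted p = 0.03), a call lost with no filter on level (adjusted p = 0.064), with all arrays in 1 fit (0.375), with the Wilcoxon rank-sum test (0.0638) and with the 3′ to 5′ covariate (0.072). The time of day of sampling is not given in the sources used here.

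USP18 removes ISG15 from proteins and is itself induced by interferon. Its lowest, median and highest signals were 7.35, 8.15 and 10.95 in fetuses, 7.25, 9.31 and 10.02 at 1 dpn, 10.04, 11.23 and 11.92 at 28 dpn, and 8.00, 9.21 and 10.28 at 188 dpn. Every array at 28 dpn lay above every array at 1 dpn, and fetal arrays 13 and 14 stood above the rest of their stage. USP18 rose by 2.05 in period II (SE 0.262, adjusted p = 3.24e-08) and fell by 1.83 in period III (SE 0.206, adjusted p = 2.13e-08), the only gene of the family called both ways with at least 0.5 each in these periods. In period I its change of 0.62 did not pass (adjusted p = 0.087). It was 0.92 without arrays 9, 11 and 12 of 1 dpn, which were picked after the values were seen. These arrays were among the lowest of their stage for USP18 (7.77, 7.25 and 8.14), so that value is a description.

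ISG15, the tag that USP18 removes, had stage means of 8.19, 9.77, 13.07 and 10.63 in the order of age. It rose by 3.30 in period II (SE 0.376) and fell by 2.44 in period III (SE 0.259), without overlap in both. Of the interferon response genes 13 of 14 rose in period II and 14 of 14 fell in period III, against 28.8% and 22.5% of all probe-sets. Only 12 were tested in period I and 13 over the whole span. The others passed the filter in period II or III only through the arrays at 28 dpn, so their values there are a description. The list mean ranged from 7.02 to 9.58 at 1 dpn, from 9.36 to 10.94 at 28 dpn and from 7.98 to 9.31 at 188 dpn. Across the 63 arrays with stage means subtracted, USP18 ran with the list mean (Spearman's rho 0.834, Pearson's r 0.848) and with ISG15 (rho 0.835, r 0.825).

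Macrophage markers were called mostly in the same directions as USP18 in periods II and III. In period II 28.8% of all probe-sets rose, and in period III 22.5% fell. Of 11 macrophage markers 7 rose in period II and 10 fell in period III, with a list mean of 9.69 to 11.20 at 1 dpn, 11.31 to 12.07 at 28 dpn and 10.74 to 11.32 at 188 dpn. The mean of 12 T and NK cell markers ranged from 4.46 to 6.01, from 6.10 to 7.30 and from 5.86 to 7.40 at these stages, close to the background means of 5.83, 5.65 and 5.64, and 4 of 5 tested rose in period II and 3 of 5 fell in period III. Their part in the change of USP18 was not tested. Of the neutrophil and myeloid precursor markers 6 of 7 fell in period I, 1 rose and 2 fell of 4 in period II, and 3 of 4 fell in period III. Only 4 were tested in period II. The others of the 7 passed the filter in period I only through the fetal arrays, so their values there are a description. Stellate, endothelial and bile duct markers were mixed, with 3 rising and 4 falling of 14 tested in period II, and hepatocyte markers fell in 9 and rose in 1 of 15.

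**Figure D4:**
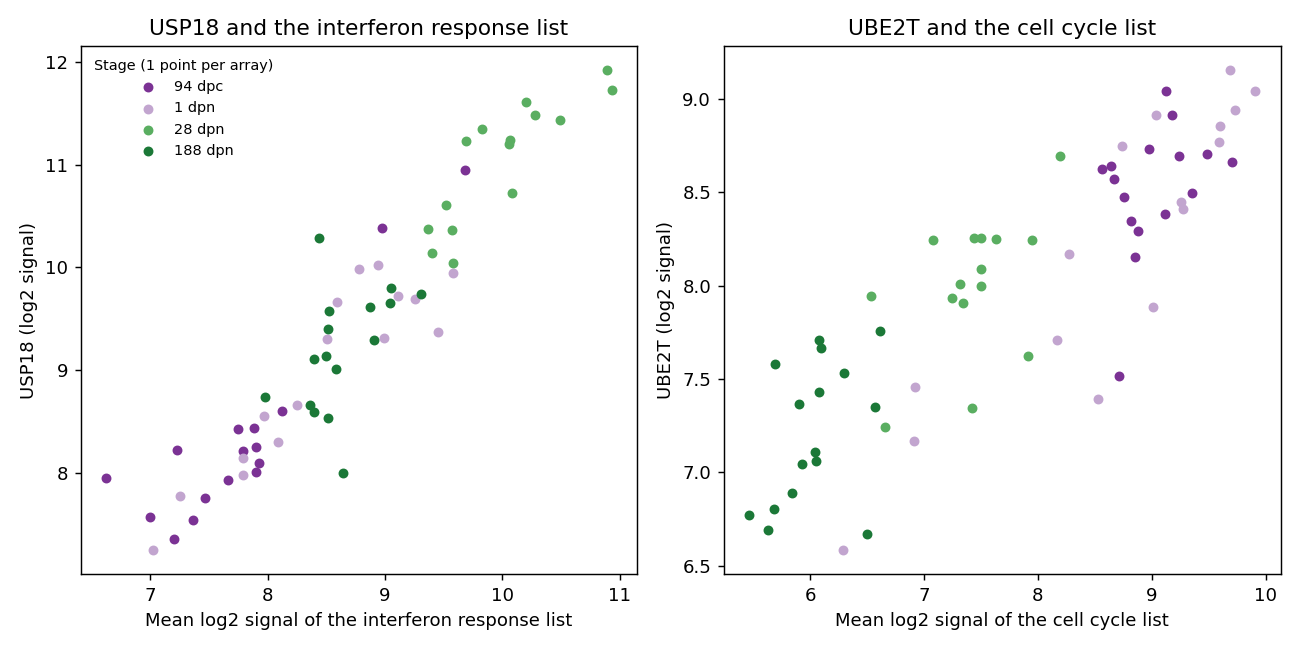
Signal of USP18 against the mean of the interferon response list (left) and of UBE2T against the mean of the cell cycle list (right), all in log2, with 1 point per array coloured by stage. USP18 and its list are both highest at 28 dpn, and UBE2T and its list are both lowest at 188 dpn, with the newborn arrays spread along the line.

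Other genes of the pathway were read from lists of partners, ligases and further deubiquitinases. In period II, 13 of 15 partners of the E1 and E2 enzymes fell and 1 (CDC34) rose, against 42.9% and 28.8% of all probe-sets. Only 13 partners were tested in period III. The others passed the filter in period II only through the arrays at 1 dpn, so their values there are a description. UFL1, the E3 of the UFM1 pathway, fell by 3.22 (SE 0.3), and UFSP2, which removes UFM1, fell by 1.74 (SE 0.159) after a rise of 0.93 in period I (SE 0.116). UFM1 itself rose by 1.03 in period I (SE 0.106) and fell by 0.65 in period II (SE 0.116). The SUMO protease SENP6 fell by 1.97 over the whole span (SE 0.143).

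The precursors of ubiquitin and its relatives all changed in period I, 4 of 10 upwards and 6 downwards, against 22.9% and 34% of all probe-sets. RPS27A, a ubiquitin fused to a ribosomal protein, fell by 0.84 (SE 0.0774), and the polyubiquitin gene UBB fell by 0.48 (SE 0.071), both without overlap. In period II 3 of 10 precursors rose and 1 fell. Of 24 E1 and E2 enzymes 5 rose and 13 fell in that period (20.8% and 54.2%), against 28.8% and 42.9% of all probe-sets. The difference between precursors and enzymes was not tested.

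Ligases were divided. Among cullin ligase genes 4 of 8 rose and 3 fell in period II, with ELOB up by 0.64 (SE 0.0743) and FBXW7 down by 1.67 (SE 0.164). Of the other HECT ligases 3 of 6 rose and 3 fell, with HERC3 up by 1.48 (SE 0.272) and ITCH down by 0.79 (SE 0.153). Of RING and other ligases 9 of 25 rose and 11 fell, with MARCH2 up by 0.86 (SE 0.0904) and RNF128 down by 2.00 (SE 0.155). Further deubiquitinases, outside the USP and UCH families, rose in 3 and fell in 7 of 15, with BAP1 up by 0.87 (SE 0.108) and JOSD2, which fell by 2.24 (SE 0.15). The shares of RING and other ligases (36% rose, 44% fell) and of further deubiquitinases (20% and 46.7%) were near those of all probe-sets. Only 5 of the HECT ligases were tested in period I, and 14 of the further deubiquitinases in period III. The others of these 2 lists passed the filter in period II through 1 stage only.

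Where a gene has several probe-sets they did not always give the same change. In period II, 14 genes had at least 2 tested probe-sets, and in 10 of them all had the same sign. USP4 was called both ways: the probe-set used here rose by 0.24 (SE 0.0746, adjusted p = 0.00476), another rose by 0.63 (SE 0.278, adjusted p = 0.042), and a dimmer one fell by 1.41 (SE 0.165, adjusted p = 5.54e-09). USP7 fell by 0.53 by the probe-set used here and fell by 2.64 (SE 0.132, adjusted p = 2.01e-17) by the other. UBE2O changed by 0.05 by one (adjusted p = 0.681) and fell by 0.55 by the other (SE 0.159, adjusted p = 0.00275). Which transcript each probe-set reads was not analysed here.

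**Figure D5:**
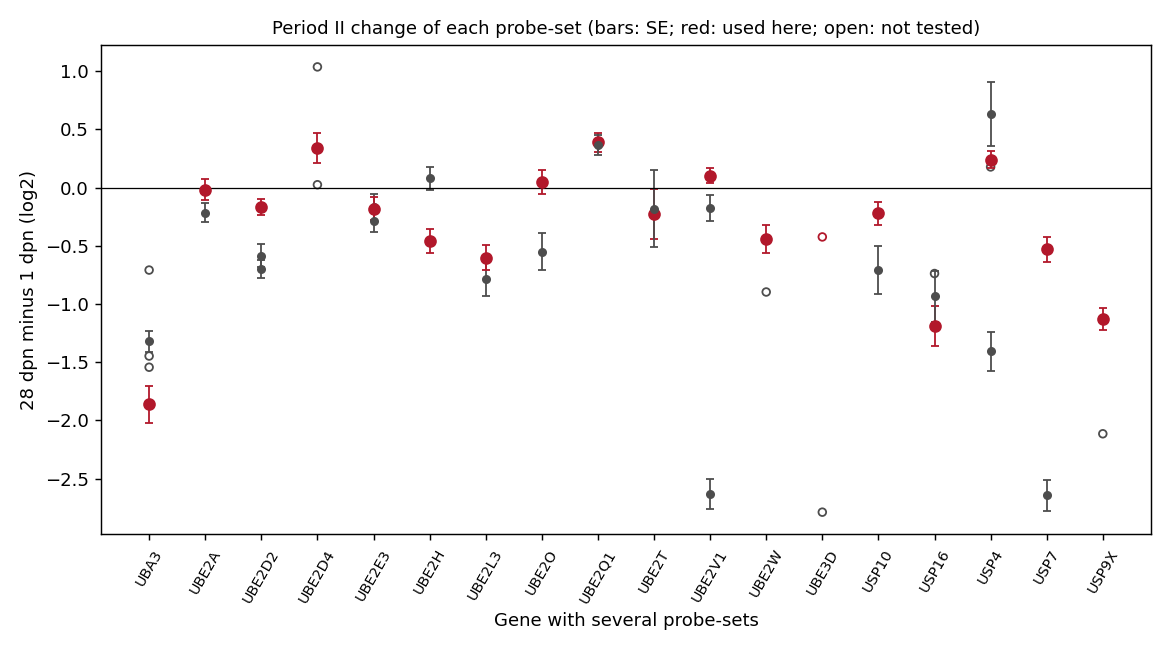
Change in period II (28 dpn minus 1 dpn, log2, y axis) of every probe-set of the 18 genes with several (x axis), with the probe-set used here in red, others in grey, bars for the SE and open circles for probe-sets that were not tested. The probe-sets of UBE2Q1 lie together, and those of UBE2V1, USP4 and USP7 lie far apart.

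Within stages the median spread of the family was smaller than that of all probe-sets tested. The median SD between arrays of a stage was 0.310 for the 42 genes tested in at least 1 period, against 0.410 for all probe-sets tested. Each gene was read from its brightest probe-set, whereas all probe-sets tested include dimmer ones. The part of signal level in this difference was not tested. Over the 861 pairs of these genes, with stage means subtracted on the 63 arrays, the median Spearman's rho was 0.0452, with a range from −0.608 to 0.780. The closest pairs were UBE3A with UBE2V2 (rho 0.780), USP16 (0.775) and USP24 (0.757), all genes that fell in period II. The most opposed pair was UBE2M and USP28 (rho −0.608). Arrays share scaling and RNA quality, so these values describe likeness only.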

How the data were processed

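The deposited log2 signals of 24123 probe-sets on 63 arrays came, per the labels, from GCOS 1.1.1. They behave as MAS5-type signals scaled by the authors to a trimmed mean of 500, with no further normalization between arrays. The study's methods name GCRMA, which these values are not. Arrays have no read depth, so their number and the distance from background limit the precision. Background was the 95th percentile of 23 control probe-sets of each array. Control probe-sets (188) were left out.

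Groups came from the labels, 1 array per animal. Sex, mother and sib pair are not in the labels, so p-values do not allow for them. AP offspring were not analysed here. For each comparison the arrays of both stages were fitted in limma 3.58.1 under R 4.3.3 (lmFit, eBayes, two-sided). A probe-set was tested if its signal exceeded the array's 50th percentile on 50% or more of the arrays of either stage. A change was called where the p adjusted by Benjamini-Hochberg was under 0.05. The fits were tested on simulated data.

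The genes, lists and tests were chosen with earlier results of these data known. Genes given singly follow a rule: all of the small role groups, the 6 largest called changes in each direction, all without overlap between arrays, the 5 of highest mean, those turning by at least 0.5, those with probe-sets called both ways, and the 2 largest changes of other lists. Some others were chosen after their values were seen. The 14 lists were genes of the pathway (6) and of cell types and states. Of the 45 symbols, 42 are in the RefSeq table. The files name no genome build, so no coordinates are given. Alternatives (11, and 3 added after seeing the data) are given at the end.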

Additional observations from a re-analysis of the deposited data

How the results depend on the processing

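For the 161 tested results of single genes, 1973 alternative values were computed: 1777 kept direction and call, 131 lost the call, 43 gained one and 22 reversed. No paired analysis was possible because replicate numbers follow accession order only. The number of genes rising in period I was 13 with centring, and with the 3′ to 5′ difference as covariate 0 were called, 0 rising and 0 falling. In period III 11 fell with quantile normalization, 5 rose and 9 fell with centring, and at an adjusted p under 0.01 there were 12 calls, 1 rising and 11 falling. Over the whole span 11 rose with quantile normalization, 14 rose and 15 fell with centring, and 4 rose with the covariate. The cause was not tested. Reversed single values were, in period I, UBE2D2 at −0.15 (mean of probe-sets) and UBE2K at −0.012 (covariate). In period II they were UBE2A at 0.21, UBE2D2 at 0.062 and USP10 at 0.0066 (centring), and UBE2O at −0.25, UBE2V1 at −0.90 and USP4 at −0.089 (mean of probe-sets). Over the whole span they were UBE2G2 at 0.29, UBE2J2 at 0.17, UBE2R2 at 0.058 and USP21 at 0.021 with quantile normalization, UBE2B at 0.17, UBE2E2 at 0.23, UBE2F at 0.12, UBE2G2 at 0.39, UBE2J2 at 0.36, UBE2M at 0.40, UBE2R2 at 0.19 and USP21 at 0.016 with centring, and UBE2V1 at −0.90 and USP4 at −0.43 with the mean of probe-sets. Calls lost with both quantile normalization and centring were those of UBE2G2, UBE2W, USP5 and USP21 in period II, of UBA2, UBE2L3, UBE2M, UBE2O, UBE2W and USP5 in period III, and of UBE2L3, UBE2W and UCHL3 over the whole span. Centring, but not quantile normalization, ended those of UBE2D3 and UBE2V2 in period I, UBE2B in period II, UBE2K and UBE3A in period III, and UBE2A, UBE2D2, UBE2K, USP7 and USP10 over the whole span, where quantile normalization ended those of UBE2E2 and USP16. The dim genes UCHL1, USP30 and UBE2QL1 could not be tested at their signal over background.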
